A study of Mus musculus with 9 samples.

Results

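The inflammasome and interleukin-1 (IL-1) genes examined here were Il1a, Il1b, Il18, Il1rn, Nlrp3, Aim2, Pycard, Casp1, Casp4 and Gsdmd. They were chosen by gene name, with no filter on their values but with earlier results of these data known. Each name matched 1 row, giving 10 genes of the 54532 in the table. RNA was sequenced from dendritic cells (DCs) sorted from mouse spleen, with 3 samples in each of 3 groups and 9 in all. N-mDCs were mature conventional DCs from normal spleen. T-mDCs were mature conventional DCs from the spleen of mice with T-cell acute lymphoblastic leukemia (T-ALL). T-DCs were CD11c+ MHCII low cells from leukemic spleen, which the labels call immature DCs. The leukemia was made by transplanting GFP+ T-ALL cells driven by the Notch1 intracellular domain into young adult female C57BL/6J or C57B6.SJL mice that had not been irradiated, so it arose from transferred cells in hosts that kept their own blood cells. CD11c+ cells were enriched with microbeads and then sorted. There was no MHCII low group from normal spleen, so in T-DCs against N-mDCs the leukemia and the low MHCII gate cannot be told apart. Neither the labels nor the study's methods say whether the samples of a group came from separate mice, so the p-values measure only the spread between these samples.

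Il1b and Nlrp3 were lower in both DC populations of leukemic spleen than in normal mature DCs. Mean Il1b was 6.21-fold lower in T-DCs and 5.13-fold lower in T-mDCs. Mean Nlrp3 was 10.3-fold lower in T-DCs and 4.04-fold lower in T-mDCs. Il1rn, which encodes the IL-1 receptor antagonist, was 2.72-fold lower in T-DCs than in T-mDCs. The differences of Il1b and Nlrp3 between T-DCs and N-mDCs passed the test in all 22 alternatives of the processing. Those between T-mDCs and N-mDCs passed in 16 for Il1b and 7 for Nlrp3, and that of Il1rn in 14. None of these differences with T-mDCs passed when T-mDC samples 2 and 3, which were much alike, were averaged to 1 sample. For the genes that carry out inflammasome assembly and pore formation, Pycard, Casp1, Casp4 and Gsdmd, no difference passed the test in any comparison as fitted here.

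IL-1β and IL-18 are made as inactive precursors in the cytosol and have no signal peptide. A first signal, such as one through a Toll-like receptor, raises transcription of Il1b and Nlrp3 through NF-κB. A second signal makes a sensor such as NLRP3 or AIM2 assemble with the adaptor ASC (Pycard) and caspase-1, which cleaves the precursors and gasdermin D. The freed end of gasdermin D makes pores in the plasma membrane, through which the cytokines leave and by which the cell may die. In DCs, IL-1 family cytokines are known to act on T cells and on the DCs themselves. RNA levels bear on transcription and do not measure cleavage, secretion or pore formation.

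Each value was an FPKM, the reads on a gene divided by its joined exon length and by a size for its library. Levels of different genes can thus be set beside each other, but those of genes whose transcripts use part of that length are low. Between 15360815 and 18440913 reads lay on genes in each sample, and for a gene of 1 kilobase each read added 0.0517 to 0.0659 FPKM. All 10 genes passed the filter on low values (an FPKM of 1 or more in 3 or more samples), and the fewest reads on any of them in a sample was 73, on Il1a in T-DC sample 3. No other pair within a group was as alike as T-mDC samples 2 and 3, whose chi-square per gene was 1.90 against 24.1 to 231 for the rest and which may be less independent than other pairs. The calls that use both are also given below with their mean as 1 sample. The T-DC samples were the most unlike, and sample 1 stood apart from the other two. The summed FPKM of 10 red cell genes was 614 in T-DC sample 1, but 58675 and 43052 in the other two T-DC samples, and it was 99.6, 5364 and 487 in the N-mDC samples and 183, 22.8 and 15.5 in the T-mDC samples. That of 13 neutrophil genes was 46.3, 4415 and 1561 in the T-DC samples in order, and ran from 99.9 to 792 in N-mDCs and from 23.4 to 27.5 in T-mDCs. That of 12 macrophage genes was 4404, 1539 and 914 in the T-DC samples, 2079, 654 and 650 in the T-mDC samples and 2511, 4950 and 3169 in the N-mDC samples. All 11 conventional DC markers were above 0 in each group, with Itgax (CD11c) at 43.0 to 152 FPKM in T-DCs and 158 to 230 in N-mDCs. Flt3, the receptor that conventional DCs need to develop, was at 4.48 to 15.4 FPKM in T-DCs and 44.4 to 78.8 in N-mDCs. Sirpa alone of the 11 overlapped between these groups, at 100 to 404 FPKM in T-DCs and 195 to 244 in N-mDCs. The summed level of the 11 markers was 634 to 2370 in T-DCs against 9722 to 20292 in the other groups. Its highest genes in every sample were the MHCII genes Cd74 and H2-Ab1. T-DCs were sorted as MHCII low, so the gap in this sum was in part set by the sort.

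Il1b encodes IL-1β, the IL-1 ligand that inflammasomes release. Its gene lies on the minus strand of chromosome 2 at chr2:129364570-129371139 (build GRCm38, ENSMUSG00000027398) and has 6 exon blocks. Il1b was the most abundant of the 10 genes in every group. In N-mDCs it was at 858, 638 and 603 FPKM, in T-DCs at 147, 131 and 59.4 FPKM, and in T-mDCs at 159, 128 and 123 FPKM. All 6 leukemic samples were below all 3 normal samples, while T-DCs and T-mDCs overlapped. By mean FPKM, Il1b ranked 58 of the 12746 tested genes in N-mDCs, 481 in T-DCs and 316 in T-mDCs. On the log2(FPKM + 1) scale, on which changes of low genes are understated, Il1b fell by 2.71 in T-DCs against N-mDCs (SE 0.34, limma adjusted p = 0.00206). In T-mDCs against N-mDCs it fell by 2.34 (SE 0.34, limma adjusted p = 0.0158). Between T-DCs and T-mDCs the difference was -0.37, with a 95% interval from -1.14 to 0.41 (limma adjusted p = 0.499). The T-DC difference passed in all 22 alternatives of the processing and the T-mDC difference in 16. The latter was -2.13 with FPKM rescaled to TPM (limma adjusted p = 0.0590). The T-mDC difference was -2.28 with an adjusted p of 0.0831 by limma when T-mDC samples 2 and 3 were averaged to 1 sample. Without N-mDC sample 2, N-mDC sample 3, T-mDC sample 2 or T-mDC sample 3 it was -2.40, -2.44, -2.30 and -2.27, with limma adjusted p-values of 0.0676, 0.0646, 0.0859 and 0.0882. In a bulk sample, fewer cells that express a gene and less RNA per cell cannot be told apart. Neutrophils are known to hold Il1b RNA. The neutrophil gene sum was highest in T-DC samples 2 and 3, where Il1b was at 131 and 59.4 FPKM. Every T-mDC sample had a macrophage gene sum (650 to 2079) below every N-mDC sample (2511 to 4950), as with Il1b. For 7 monocyte genes the sums of these groups overlapped, at 75.5 to 250 against 247 to 433. T-DC sample 1, with Il1b at 147 FPKM, had sums of 4404 for macrophage and 724 for monocyte genes. Both sums were lower in T-DC samples 2 and 3. The part of neutrophils, macrophages or monocytes in Il1b was not tested. An antisense RNA, Il1bos, shares 25 exon bases with Il1b and was at no more than 2.38 FPKM in any sample.

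**Figure D1:**
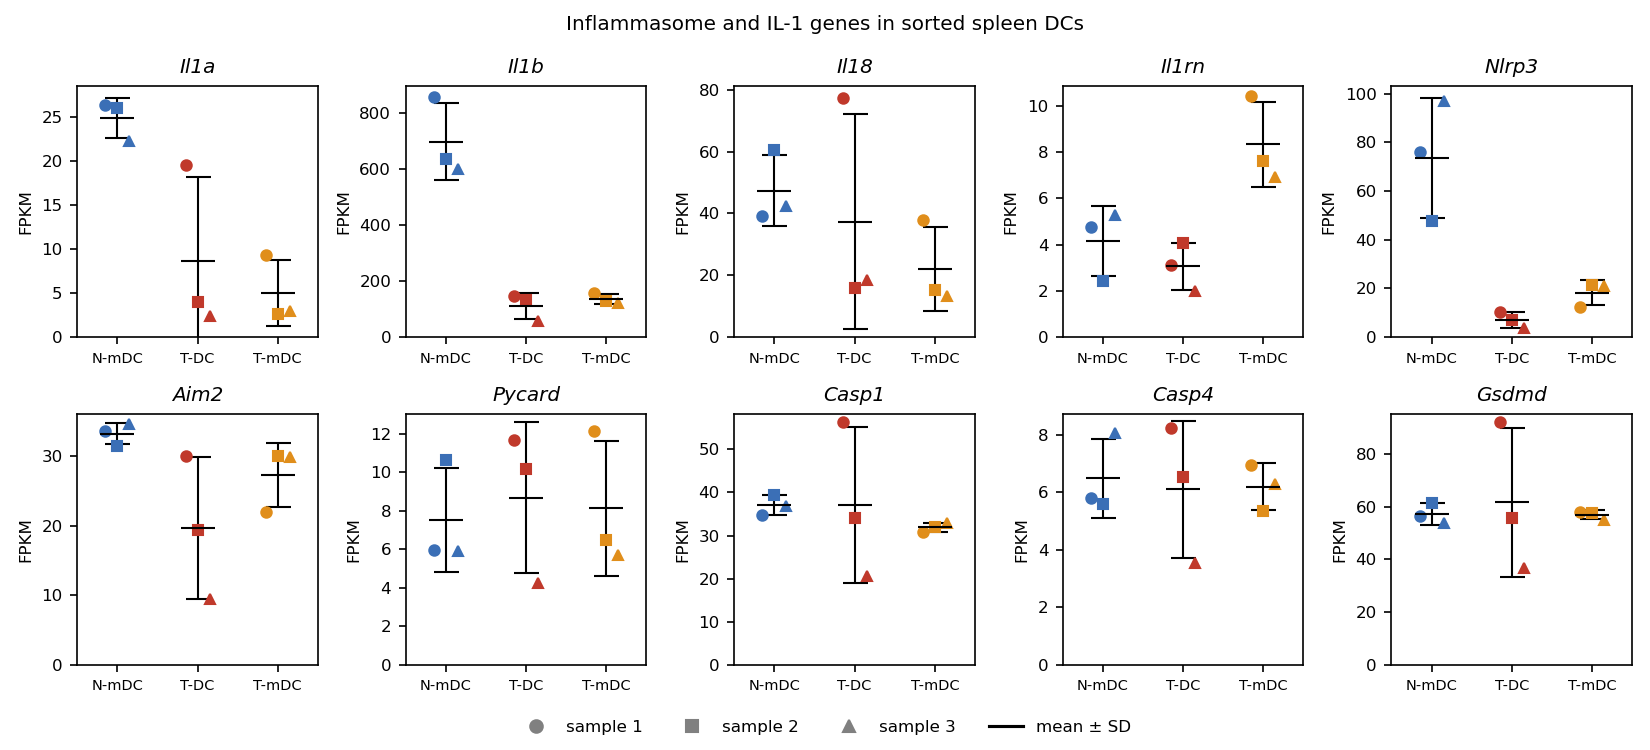
FPKM of the 10 genes (vertical axes, each starting at 0) in the 3 samples of each group (horizontal axes), with the mean and SD of each group as bars; the lower bar of Il1a in T-DCs is cut at 0. Il1b and Nlrp3 of all 6 leukemic samples lie below all 3 N-mDC samples, while Casp1 and Gsdmd of T-DCs spread on both sides of the other groups.

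The promoter of Il1b is shown because Il1b was the most abundant of the 10 genes and was lower in both leukemic groups. RefSeq (GRCm38.p6) gives its start, and the window runs from 250 bases before the start to 50 after, at chr2:129371090-129371389 on the minus strand.
Il1b: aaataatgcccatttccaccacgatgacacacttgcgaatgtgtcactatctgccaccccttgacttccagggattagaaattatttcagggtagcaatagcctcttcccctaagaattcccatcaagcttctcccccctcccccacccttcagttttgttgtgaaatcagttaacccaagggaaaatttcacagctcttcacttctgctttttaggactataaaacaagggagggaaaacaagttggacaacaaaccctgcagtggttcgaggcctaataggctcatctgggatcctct
Capitals would mark matches, on both strands, to simple forms of 5 motifs. These were NF-κB (GGG and CC with 5 bases of any kind between them), AP-1 (TGANTCA), C/EBP (TTGC and AA with 2 bases of any kind between them), ISRE (GAAA, 2 bases of any kind and GAAA) and PU.1 (GAGGAA). The Il1b window held none of these letters, which says nothing of more distant sites. Of all 32851 such windows in the RefSeq table, 50.8% held the NF-κB letters, 7.81% AP-1, 10.8% C/EBP, 3.44% ISRE and 28.3% PU.1. Of the 10 genes, 9 had a window and together they had 13; the gene without one was Gsdmd. Of the 13 windows, 8 held NF-κB letters, 5 PU.1, 2 AP-1, 1 C/EBP and 0 ISRE, and windows of the same gene can overlap. By gene, NF-κB letters were found for 4 of the 9 genes (Il1rn, Casp1, Casp4 and Nlrp3), PU.1 for 5, AP-1 for 2, C/EBP for 1 and ISRE for 0. Genes with several windows have more room for a match, so these counts by gene are not comparable with the shares of single windows.

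Il1a encodes IL-1α, the ligand of the same receptor that can act without cleavage. It lies beside Il1b on the minus strand at chr2:129299610-129309972 (ENSMUSG00000027399). Il1a was at 26.3, 26.0 and 22.3 FPKM in N-mDCs, at 19.6, 3.99 and 2.44 in T-DCs and at 9.31, 2.62 and 3.002 in T-mDCs. Every leukemic sample was below every normal sample, but the first sample of each leukemic group was several times higher than the other two. The differences on the log2 scale were -1.87 in T-DCs (95% interval -3.33 to -0.41, limma adjusted p = 0.0773) and -2.28 in T-mDCs (-3.74 to -0.82, limma adjusted p = 0.119), and neither passed. Without T-DC sample 1, both passed, at -2.64 (limma adjusted p = 0.00209) and -2.28 (limma adjusted p = 0.0151), in a fit that called 39.5% and 8.02% of all tested genes in these comparisons. With red cell genes as a covariate the T-DC difference was -0.82 (limma adjusted p = 0.580). Gm14023, on the other strand, shares 222 exon bases with Il1a and reached 1.01 FPKM.

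Il18 encodes IL-18, which induces interferon-γ in T and NK cells (chr9:50554827-50581840, plus strand, ENSMUSG00000039217). It was at 39.1, 60.5 and 42.4 FPKM in N-mDCs, at 77.5, 15.96 and 18.5 in T-DCs and at 37.8, 15.4 and 13.2 in T-mDCs. T-DC sample 1 was the highest of all 9 samples, while T-DC samples 2 and 3 were below every N-mDC sample. The difference was -0.68 in T-DCs (SE 0.60, limma adjusted p = 0.447) and -1.19 in T-mDCs (SE 0.60, limma adjusted p = 0.359). Without T-DC sample 1 the T-DC difference was -1.38 (limma adjusted p = 0.0303), and with red cell genes as a covariate it was 0.10 (limma adjusted p = 0.958).

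Il18bp, whose product binds and neutralizes IL-18, was also highest in the first sample of each leukemic group. It was at 8.39, 7.98 and 6.93 FPKM in N-mDCs, at 50.9, 12.2 and 11.3 in T-DCs and at 25.3, 6.51 and 5.07 in T-mDCs. All T-DC samples were above all N-mDC samples, yet the difference of 1.22 did not pass (SE 0.66, limma adjusted p = 0.217). The macrophage gene sum was also highest in the first sample of each leukemic group, at 4404 in T-DCs and 2079 in T-mDCs. The summed FPKM of 7 monocyte genes was highest there too, at 724, 375 and 248 in T-DCs and 250, 76.8 and 75.5 in T-mDCs. So was that of 5 plasmacytoid DC genes, at 163, 115 and 137 and at 148, 123 and 119. The other cell type lists did not have their highest sum in the first sample of both groups. In the leukemic samples Il1a, Il18 and Il18bp were thus high where genes of macrophages and of these other cell types were high. The part of any cell type in these values was not tested. In N-mDCs, with macrophage sums of 2511 to 4950, Il18bp was lower than in all 3 T-DC samples.

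**Figure D2:**
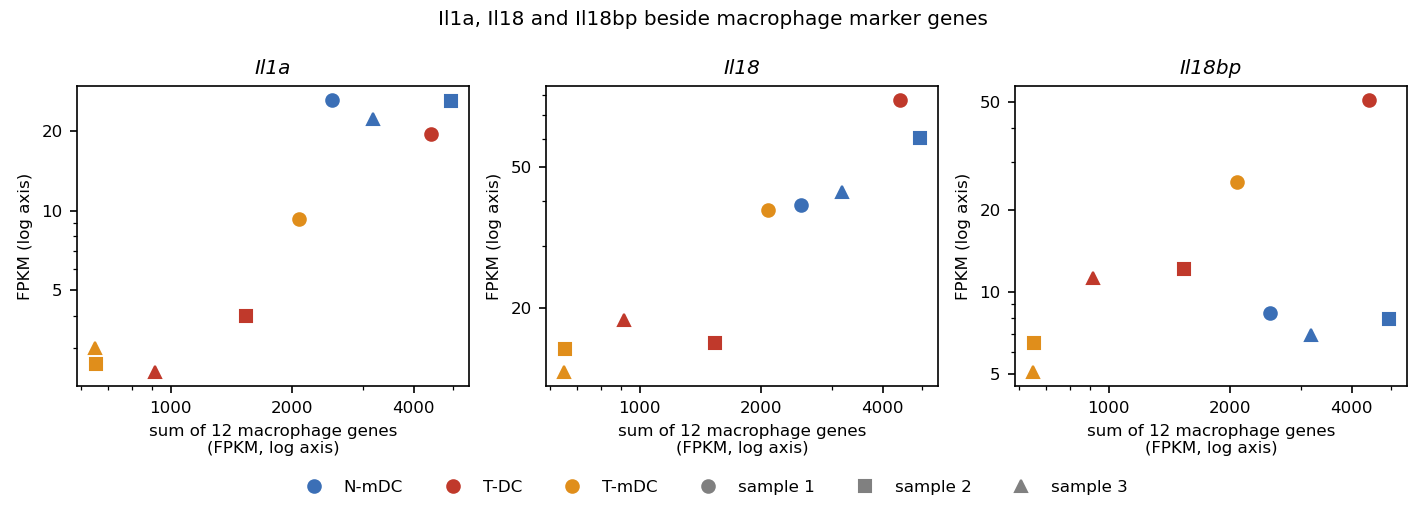
FPKM of Il1a, Il18 and Il18bp (vertical axes, log scale) against the summed FPKM of 12 macrophage genes (horizontal axes, log scale), 1 point per sample, with groups by color and sample numbers by shape. T-DC sample 1 (sum 4404) and T-mDC sample 1 (sum 2079) have the highest values of all 3 genes within their groups, and N-mDCs have sums of 2511 to 4950 with Il18bp at 6.93 to 8.39 FPKM.

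Il1rn encodes the receptor antagonist, which binds the IL-1 receptor without signaling (chr2:24336853-24351494, plus strand, ENSMUSG00000026981). Of the 10 genes, it alone had its highest mean in T-mDCs, and all 3 T-mDC samples were above all others. Il1rn was at 4.77, 2.41 and 5.25 FPKM in N-mDCs, at 3.11, 4.06 and 1.999 in T-DCs and at 10.4, 7.61 and 6.94 in T-mDCs. In T-DCs against T-mDCs it fell by 1.22 on the log2 scale (SE 0.29, limma adjusted p = 0.0280). In T-mDCs against N-mDCs the difference was 0.89, with an interval from 0.22 to 1.55 (limma adjusted p = 0.173), and in T-DCs against N-mDCs it was -0.33 (limma adjusted p = 0.453). With T-mDC samples 2 and 3 averaged, the difference between T-DCs and T-mDCs was -1.29 (limma adjusted p = 0.0872). With red cell genes as a covariate, in a fit that called 0 of all tested genes there, the difference was -0.97 (limma adjusted p = 0.415). It also missed the threshold without T-DC sample 3 (-1.015), T-mDC sample 1 (-1.06), T-mDC sample 2 (-1.26) or T-mDC sample 3 (-1.32), with limma adjusted p-values of 0.0838, 0.0698, 0.0955 and 0.0794. The file's length for Il1rn, 5535 bases, joins all annotated exons, where the longest coding transcript has 2474 bases, so its FPKM is low relative to a value per transcript.

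The first promoter window of Il1rn is shown to set it beside that of the agonist Il1b. It lies at chr2:24336610-24336909 on the plus strand, and capitals mark AP-1 letters 141 bases before the start and NF-κB letters 54 and 4 bases before it.
Il1rn: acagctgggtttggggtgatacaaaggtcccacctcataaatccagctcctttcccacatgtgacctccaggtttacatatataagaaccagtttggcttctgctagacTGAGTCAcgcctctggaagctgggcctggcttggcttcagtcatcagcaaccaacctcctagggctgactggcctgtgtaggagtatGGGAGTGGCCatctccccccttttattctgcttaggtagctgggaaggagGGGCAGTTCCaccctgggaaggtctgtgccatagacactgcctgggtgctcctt
The other windows of Il1rn start further into the gene and overlap each other, and the 1 match to the NF-κB letters in each is the same stretch. None of the matches in the window shown overlap. These matches describe the sequence and are not binding sites measured in these cells.

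The balance of antagonist and agonist RNA was taken as log2(FPKM + 1) of Il1rn minus that of Il1b in each sample. It was -7.22, -7.55 and -6.59 in N-mDCs, -5.17, -4.71 and -4.33 in T-DCs and -3.81, -3.90 and -3.96 in T-mDCs. The 3 groups did not overlap in any pair, with T-mDCs the highest and N-mDCs the lowest, and Il1b was above Il1rn in all 9 samples. The mean difference was 2.38 for T-DCs against N-mDCs, 3.23 for T-mDCs against N-mDCs and -0.85 for T-DCs against T-mDCs. Each gave p = 0.10 by a two-sided exact permutation test, the smallest p that 3 against 3 samples allow. These tests count T-mDC samples 2 and 3 as separate samples. Without 1 or the other of them, the last difference was -0.853 or -0.885 and that of T-mDCs against N-mDCs 3.234 or 3.266. Against Il1a, the balance was -2.38 ± 0.56 in N-mDCs, -0.83 ± 1.30 in T-DCs and 0.80 ± 0.58 in T-mDCs (mean ± SD, n = 3). T-DC sample 1, at -2.32, lay among the N-mDC samples. T-mDCs differed from N-mDCs by 3.17 (exact permutation p = 0.10) and T-DCs from N-mDCs by 1.54 (exact permutation p = 0.30).

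**Figure D3:**
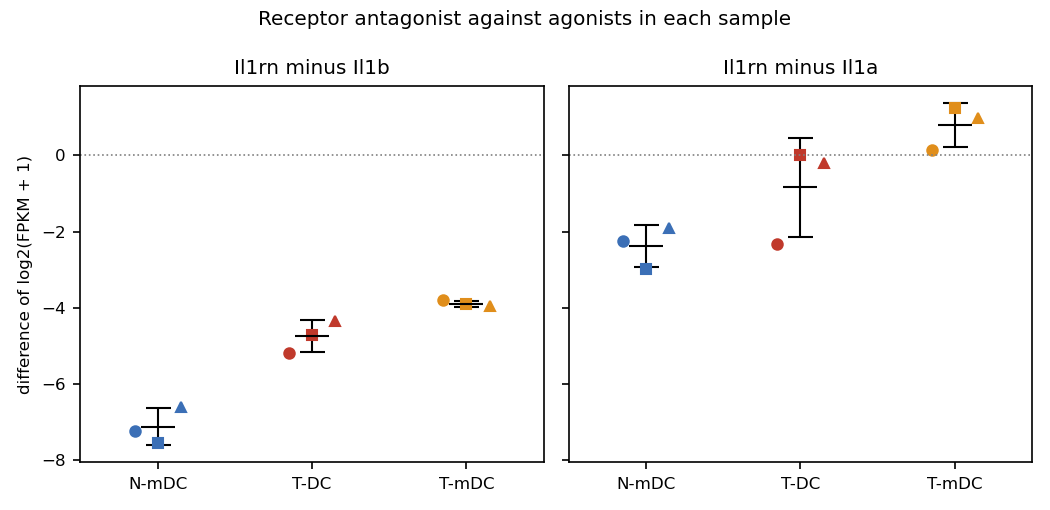
Il1rn minus Il1b (left) and Il1rn minus Il1a (right), as differences of log2(FPKM + 1) on the vertical axis, for each sample of the 3 groups on the horizontal axis, with mean and SD as bars; 0 marks equal values. For Il1b the groups are separate, at means of -7.12, -4.74 and -3.89, and all 9 samples lie below 0.

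Nlrp3 encodes the sensor that responds to potassium efflux, crystals and other forms of cell stress. It lies at chr11:59541568-59566956 on the plus strand (ENSMUSG00000032691) with 11 exon blocks. Nlrp3 was at 76.1, 47.7 and 97.0 FPKM in N-mDCs, at 10.3, 7.24 and 3.83 in T-DCs and at 12.2, 21.4 and 21.1 in T-mDCs. The 3 groups did not overlap in any pair, in the order N-mDCs, T-mDCs, T-DCs. It was the second most abundant of the 10 genes in N-mDCs, ranking 699 of all tested genes, but ranked 6519 in T-DCs and 2893 in T-mDCs. On the log2 scale Nlrp3 fell by 3.22 in T-DCs against N-mDCs (SE 0.38, limma adjusted p = 0.00168), and this passed in all 22 alternatives. In T-mDCs against N-mDCs it fell by 1.94 (SE 0.38, limma adjusted p = 0.0428). The latter passed in 7 of the 22 alternatives, and its adjusted p ranged from 0.000555 to 0.162 over them with values from -2.28 to -1.69. Each of N-mDC samples 1, 2 and 3, T-DC sample 2 and T-mDC samples 1, 2 and 3 ended this call when left out, with values from -2.22 to -1.69 and limma adjusted p-values from 0.0725 to 0.162. With T-mDC samples 2 and 3 averaged it was -2.06 (limma adjusted p = 0.131). Between T-DCs and T-mDCs the difference was -1.29, with an interval from -2.16 to -0.42 (limma adjusted p = 0.0571). It passed in 4 of the 22 alternatives, one of them without T-DC sample 1, at -1.57 (limma adjusted p = 0.0145). With red cell genes as a covariate it was -0.14 (limma adjusted p = 0.910), in the fit that called 0 of all tested genes there. With T-mDC samples 2 and 3 averaged it was -1.16 (limma adjusted p = 0.197).

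The window at the first annotated start of Nlrp3 is shown because Nlrp3 had the largest difference of the 10 genes between T-DCs and N-mDCs. It lies at chr11:59541319-59541618 on the plus strand, and capitals mark letters that match the NF-κB form on both strands, 186 bases before the start.
Nlrp3: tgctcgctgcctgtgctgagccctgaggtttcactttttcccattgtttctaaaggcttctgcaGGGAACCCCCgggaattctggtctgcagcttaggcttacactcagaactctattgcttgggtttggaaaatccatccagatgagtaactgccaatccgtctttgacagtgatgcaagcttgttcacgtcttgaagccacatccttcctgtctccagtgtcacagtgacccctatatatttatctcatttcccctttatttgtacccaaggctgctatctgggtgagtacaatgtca
A second window of Nlrp3, at chr11:59542436-59542735, holds NF-κB letters 8 bases before its start and PU.1 letters 220, 129 and 36 bases before it.

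Aim2 encodes the sensor of DNA in the cytosol (chr1:173350879-173466040, plus strand, ENSMUSG00000037860). It was at 33.7, 31.6 and 34.6 FPKM in N-mDCs, at 30.0, 19.4 and 9.54 in T-DCs and at 22.0, 30.1 and 29.9 in T-mDCs. All leukemic samples were below all normal samples, but T-DC sample 1 and T-mDC samples 2 and 3 were close to them. The difference was -0.86 in T-DCs (SE 0.35, limma adjusted p = 0.118) and -0.29 in T-mDCs (SE 0.35, limma adjusted p = 0.724). Without T-DC sample 1 it was -1.22 in T-DCs (limma adjusted p = 0.0104), in the fit that called 39.5% of all tested genes. With red cell genes as a covariate it was -0.16 (limma adjusted p = 0.839).

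Pycard encodes ASC, the adaptor that joins sensors to caspase-1 (chr7:127989708-127993867, minus strand, ENSMUSG00000030793). Its mean was 7.52 ± 2.70 FPKM in N-mDCs, 8.69 ± 3.93 in T-DCs and 8.13 ± 3.51 in T-mDCs (SD, n = 3), and single samples ran from 4.23 to 12.2. The samples of the 3 groups overlapped. The differences were 0.13 for T-DCs and 0.08 for T-mDCs against N-mDCs, and 0.05 between the leukemic groups, with intervals reaching from -0.86 to 1.04 (limma adjusted p = 0.846, 0.943 and 0.942). With samples weighted by their quality, Pycard was called higher in T-DCs, by 0.61 against N-mDCs (limma adjusted p = 0.0204) and by 0.60 against T-mDCs (limma adjusted p = 0.00162), in a fit that called 66.6% and 77.9% of all tested genes. Gm45205 on the other strand shares 485 exon bases with Pycard and was at 0.0816 FPKM or less.

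Casp1 encodes the protease that cleaves IL-1β, IL-18 and gasdermin D, and Casp4 the mouse caspase-11, which senses bacterial lipopolysaccharide in the cytosol. They are neighbors on the plus strand of chromosome 9, at chr9:5298517-5307265 (ENSMUSG00000025888) and chr9:5308828-5336783 (ENSMUSG00000033538). Casp1 was at 34.8, 39.5 and 36.8 FPKM in N-mDCs, at 56.4, 34.0 and 20.6 in T-DCs and at 30.8, 31.9 and 32.9 in T-mDCs. T-DC samples thus lay above and below both other groups, and T-mDCs were just below N-mDCs without overlap. The Casp1 difference was -0.11 in T-DCs against N-mDCs (95% interval -0.82 to 0.59, limma adjusted p = 0.827) and -0.21 in T-mDCs against N-mDCs (-0.92 to 0.50, limma adjusted p = 0.778). Casp4 ran from 3.55 to 8.25 FPKM over the 9 samples, and its differences were -0.12, -0.07 and -0.05 in the 3 comparisons, with intervals from -0.74 to 0.57 (limma adjusted p from 0.790 to 0.950).

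Gsdmd encodes gasdermin D, the pore former (chr15:75862327-75867408, plus strand, ENSMUSG00000022575). It was at 56.5, 61.6 and 53.7 FPKM in N-mDCs, at 92.3, 55.9 and 36.6 in T-DCs and at 58.0, 57.7 and 54.9 in T-mDCs. The mean of T-mDCs was within the spread of N-mDCs, and T-DCs again spread on both sides. Its fitted differences were 0.01, 0.01 and -0.01, with intervals from -0.68 to 0.69 (limma adjusted p from 0.977 to 0.993). Pycard, Casp1, Casp4 and Gsdmd each changed sign in some comparison under another scaling or without 1 sample, and in no such case did the value pass the test.

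Set side by side, Il1b made up 66.3% to 75.2% of the summed FPKM of the 10 genes in N-mDCs. Its share was lower in the leukemic samples, from 32.3% to 45.5% in T-DCs and from 41.4% to 44.3% in T-mDCs. In N-mDCs the means ran in the order Il1b, Nlrp3, Gsdmd, Il18, Casp1, Aim2, Il1a, Pycard, Casp4, Il1rn. Nlrp3 and Gsdmd, Gsdmd and Il18, Il18 and Casp1, and Pycard and Casp4 were neighbors in this order whose samples overlapped. In T-DCs Nlrp3 stood at 8 of 10 in the order, with samples overlapping those of Aim2, Pycard, Il1a, Casp4 and Il1rn. In T-mDCs it stood at 6, between Il18, whose samples it overlapped, and Il1rn, whose samples it did not. These orders rest on lengths that join all annotated exons. The length was 5535 bases for Il1rn and 3710 for Casp4, where the longest coding transcripts have 2474 and 1435. For Pycard it was 3800, with coding transcripts from 493 to 3800 bases. The places of these genes, and their overlaps with others, could differ with values per transcript.

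Of the 10 genes, 2 were called lower and 0 higher in T-DCs against N-mDCs, where 10.3% of all tested genes were called lower and 6.10% higher. In T-mDCs against N-mDCs, 2 were called lower and 0 higher, against 1.52% and 0.690% of all tested genes. In T-DCs against T-mDCs, 1 was called lower and 0 higher, against 8.79% and 5.44%. At an unadjusted limma p under 0.05 in T-DCs against N-mDCs, 4 were lower and 0 higher, beside 17.1% and 18.0% of all tested genes. In T-DCs against T-mDCs these were 2 and 0, beside 15.4% and 14.7%. In T-mDCs against N-mDCs they were 3 and 1 (Il1rn), beside 9.60% and 7.12%. On recovered reads, limma voom called 2 lower in T-DCs against N-mDCs, 2 in T-DCs against T-mDCs and 1 in T-mDCs against N-mDCs, and 0 higher in each. Of all tested genes it called 1411, 1432 and 105 lower and 608, 478 and 68 higher. Samples of the 2 groups did not overlap for 4 of the 10 genes in T-DCs against N-mDCs (32.4% of all tested genes), for 7 in T-mDCs against N-mDCs (35.0%) and for 2 in T-DCs against T-mDCs (34.9%). The median difference of the 10 genes was -0.51, -0.25 and -0.03 in the same order, beside 0.05, 0.03 and 0.07 for all tested genes. T-DC samples and T-mDC samples were set against the same N-mDC samples, so these comparisons are not independent of each other. The counts depended on the samples used. Without T-DC sample 1, 5 of the 10 were called in T-DCs against N-mDCs, 3 in T-DCs against T-mDCs and 3 in T-mDCs against N-mDCs, where that fit called 39.5%, 35.1% and 8.02% of all tested genes. With T-mDC samples 2 and 3 averaged, limma called 2 in T-DCs against N-mDCs and 0 in the comparisons with T-mDCs. That fit called 1395 of all tested genes in T-DCs against N-mDCs, 540 in T-DCs against T-mDCs and 23 in T-mDCs against N-mDCs. With all samples these were 2096, 1813 and 282. Without sample 2 or 3 of the N-mDCs or of the T-mDCs, limma called 0 in T-mDCs against N-mDCs. These fits called 47, 55, 25 and 23 of all tested genes there, against 282 with all samples. In this comparison limma called 1 of the 10 without N-mDC sample 1, T-DC sample 2 or T-mDC sample 1, beside 219, 193 and 299 of all tested genes. Without T-DC sample 3 or T-mDC sample 2 or 3 it called 0 in T-DCs against T-mDCs. Of all tested genes, 1074, 543 and 541 were then called, against 1813 with all samples.

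**Figure D4:**
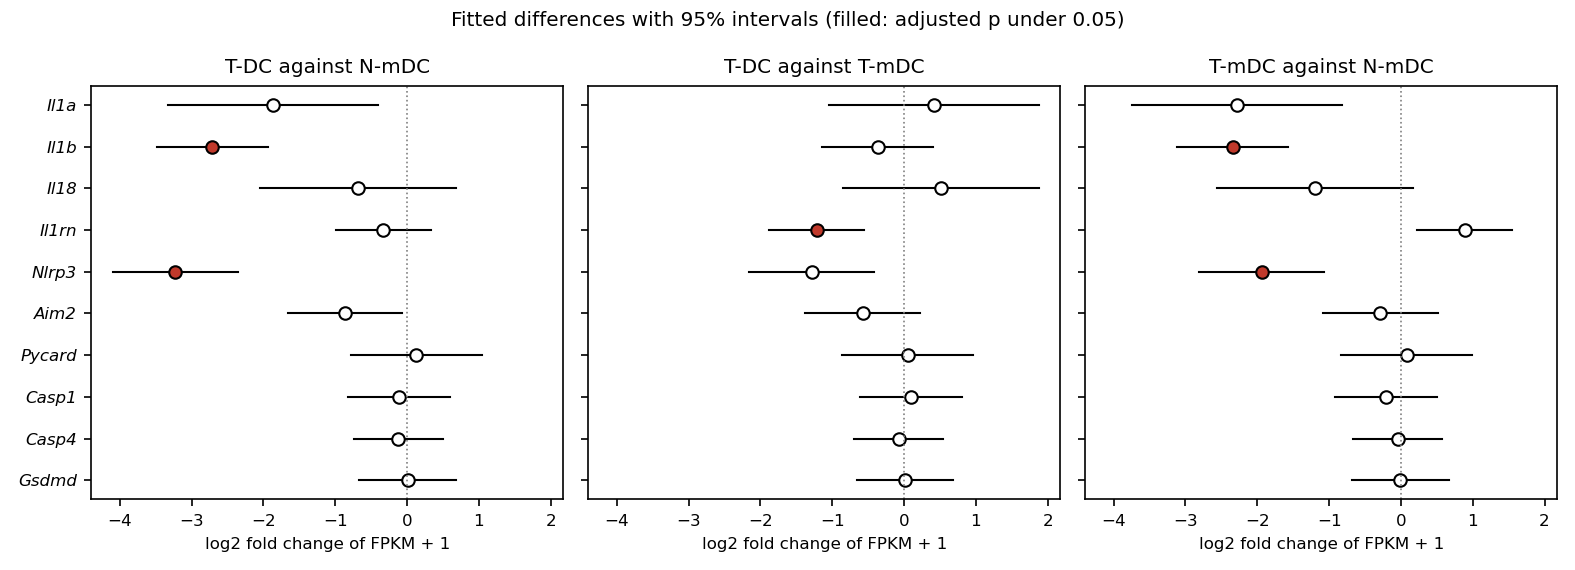
Fitted difference of each of the 10 genes in log2(FPKM + 1) (horizontal axes, with 95% intervals as lines) in the 3 comparisons, with filled points where the limma adjusted p was under 0.05. Il1b and Nlrp3 are filled against N-mDCs at -2.71 and -3.22 in T-DCs and -2.34 and -1.94 in T-mDCs, and Il1rn is filled at -1.22 in T-DCs against T-mDCs.

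Other genes of the pathway were taken from 6 lists with 61 genes in the table, of which 45 passed the filter. In T-DCs against N-mDCs, 6 of the 45 were called lower and 2 higher, beside 10.3% and 6.10% of all tested genes. In T-DCs against T-mDCs 3 were lower and 2 higher, beside 8.79% and 5.44%. In T-mDCs against N-mDCs limma called 1 lower and 0 higher, beside 1.52% and 0.690%. At an unadjusted limma p under 0.05, 9 were lower and 6 higher in T-DCs against N-mDCs, beside 17.1% and 18.0% of all tested genes. In T-DCs against T-mDCs 10 were lower and 4 higher, beside 15.4% and 14.7%. In T-mDCs against N-mDCs 10 were lower and 2 higher, beside 9.60% and 7.12%. The medians of the 45 were -0.06, -0.03 and 0.015. Of the 6 ligands beside the 10 genes, 1 passed the filter and was not called in any comparison, and Il33, which encodes the alarmin IL-33, was at 0 in all N-mDC and T-DC samples.

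Of the 5 receptors and soluble inhibitors tested, Il1r2 was called lower in all 3 comparisons. It encodes the decoy receptor, which binds IL-1 without signaling. Il1r2 was at 116, 145 and 189 FPKM in N-mDCs, at 3.48, 8.25 and 2.38 in T-DCs and at 8.44, 16.2 and 15.5 in T-mDCs. The groups did not overlap in any pair, and the normal samples were the highest. It fell by 4.83 in T-DCs against N-mDCs (limma adjusted p = 5.40e-04) and fell by 3.41 in T-mDCs against N-mDCs (limma adjusted p = 0.00846). In T-DCs against T-mDCs it fell by 1.42 (limma adjusted p = 0.0477). Both differences from N-mDCs passed in all 22 alternatives and the last in 10. Of the samples, leaving out any 1 of the N-mDCs, T-DC sample 1 or 3, or T-mDC sample 2 or 3 ended the call between T-DCs and T-mDCs, with values from -1.42 to -1.11 and limma adjusted p-values from 0.0540 to 0.177. Under the red cell covariate the difference between T-DCs and T-mDCs was -1.575 (limma adjusted p = 0.358), in the fit that called 0 of all tested genes there. With T-mDC samples 2 and 3 averaged it was -1.28 (limma adjusted p = 0.174), and Il1r2 in T-mDCs against N-mDCs was still called, at -3.55 (limma adjusted p = 0.0434). Il1r1, the signaling receptor, ran from 0.488 to 1.11 FPKM in N-mDCs, from 0.219 to 2.65 in T-DCs and from 0.300 to 0.350 in T-mDCs.

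Among the 16 genes of IL-1 receptor signaling, Irak3, which encodes a kinase-dead inhibitor of the pathway (IRAK-M), was called higher in T-DCs. It was at 2.11, 2.94 and 3.76 FPKM in N-mDCs, at 26.6, 21.4 and 11.1 in T-DCs and at 9.86, 1.999 and 1.64 in T-mDCs. All T-DC samples were above all others, although T-mDC sample 1 came near the lowest of them. The difference was 2.33 against N-mDCs (limma adjusted p = 0.0220) and 2.15 against T-mDCs (limma adjusted p = 0.0317), and these passed in 16 and 12 of the 22 alternatives. With T-mDC samples 2 and 3 averaged the latter was 1.82 (limma adjusted p = 0.128). Under the red cell covariate the differences were 2.34 (limma adjusted p = 0.133) and 2.15 (limma adjusted p = 0.353). Leaving out any 1 of the N-mDCs or T-DC sample 2 ended the call against N-mDCs, at 2.17 to 2.48 (limma adjusted p from 0.0548 to 0.0777), and leaving out sample 2 of any group, N-mDC sample 3 or T-mDC sample 3 ended that against T-mDCs, at 1.78 to 2.15 (limma adjusted p from 0.0528 to 0.130). Irak2, a signaling kinase of the same family, fell by 0.67 in T-DCs against N-mDCs (limma adjusted p = 0.0454, passing in 8 alternatives), and any 1 sample other than T-DC sample 1 ended the call when left out, at -0.73 to -0.56 (limma adjusted p from 0.0675 to 0.140). With red cell genes as a covariate Irak2 was at -0.37 (limma adjusted p = 0.362). Traf6, the ubiquitin ligase that acts after the IRAK kinases, fell by 1.14 in T-DCs against T-mDCs (limma adjusted p = 0.0312, passing in 14), but not without T-DC sample 2 or 3 or T-mDC sample 2 or 3, at -1.09 to -1.05 (limma adjusted p from 0.0875 to 0.129). Traf6 was at -1.06 when T-mDC samples 2 and 3 were averaged (limma adjusted p = 0.128), and with the red cell covariate at -0.32 (limma adjusted p = 0.699). The covariate fit called 0 of all tested genes in T-DCs against T-mDCs.

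Of the 8 other sensors tested, 3 were called lower in T-DCs against N-mDCs. Mefv, which encodes pyrin, the sensor of inactivated RhoA, was at 45.7, 25.0 and 32.1 FPKM in N-mDCs, at 11.5, 7.42 and 4.92 in T-DCs and at 11.1, 15.3 and 14.3 in T-mDCs. Leukemic samples were again below normal ones, and Mefv fell by 2.01 in T-DCs (limma adjusted p = 0.00498) in all 22 alternatives, with -1.26 under the red cell covariate (limma adjusted p = 0.0382), while in T-mDCs the difference of -1.25 did not pass (limma adjusted p = 0.0886). Nlrp1b, a sensor of bacterial proteases, fell by 1.35 in T-DCs against N-mDCs (limma adjusted p = 0.0159) and fell by 1.04 against T-mDCs (limma adjusted p = 0.0430). Each of N-mDC samples 1 and 3 and T-DC samples 2 and 3 ended both Nlrp1b calls when left out, and T-mDC samples 2 and 3 the second, at -1.34 to -1.15 (limma adjusted p from 0.0521 to 0.0629) and -1.04 to -0.84 (limma adjusted p from 0.0596 to 0.169). They passed in 16 and 9 of 21 alternatives. With the red cell covariate they were -0.71 (limma adjusted p = 0.159) and -0.14 (limma adjusted p = 0.869), where that fit called 0 of all tested genes in the second comparison. With T-mDC samples 2 and 3 averaged the second was -0.95 (limma adjusted p = 0.162). Nlrp10, at 1.10 to 4.15 FPKM in N-mDCs and 0.175 to 0.409 in T-DCs, fell by 1.20 against N-mDCs (limma adjusted p = 0.0467, passing in 8 of 21 alternatives), and any 1 sample other than N-mDC sample 2 and T-DC sample 1 ended that call when left out, at -1.37 to -0.79 (limma adjusted p from 0.0503 to 0.124). With the red cell covariate Nlrp10 was at -0.65 (limma adjusted p = 0.403).

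Of the 11 regulators tested, Tnfaip3 was called lower in T-DCs against N-mDCs. It encodes A20, which NF-κB induces and which restrains both NF-κB and NLRP3. Tnfaip3 was at 172, 122 and 199 FPKM in N-mDCs, at 41.6, 43.6 and 18.4 in T-DCs and at 52.5, 99.1 and 102 in T-mDCs. The groups did not overlap, in the same order as for Nlrp3. It fell by 2.28 in T-DCs against N-mDCs (limma adjusted p = 0.00728), while -1.30 against T-mDCs (limma adjusted p = 0.0593) and -0.98 in T-mDCs against N-mDCs (limma adjusted p = 0.255) did not pass. With red cell genes as a covariate the first was -1.68 (limma adjusted p = 0.0956). Dpp8, whose product holds NLRP1 inactive, was called higher in T-DCs against N-mDCs by 0.73 (limma adjusted p = 0.0488), but passed in only 4 of 22 alternatives, and any 1 sample other than T-DC sample 1 ended the call when left out, at 0.49 to 0.86 (limma adjusted p from 0.0644 to 0.109). Ifi204, an interferon-induced DNA sensor, was called higher in T-DCs against T-mDCs by 1.69 (limma adjusted p = 0.0336, passing in 12), but not without sample 2 of any group, T-DC sample 3 or T-mDC sample 3, at 1.503 to 1.79 (limma adjusted p from 0.0536 to 0.137). Under the red cell covariate Ifi204 was at 1.62 (limma adjusted p = 0.373), in the fit that called 0 of all tested genes there. It was at 1.51 with T-mDC samples 2 and 3 averaged (limma adjusted p = 0.136). That mean, used in the fit of all 3 groups, also ended the calls of Irak2, Dpp8 and Nlrp10 in T-DCs against N-mDCs (limma adjusted p = 0.0843, 0.0852 and 0.0725). Of the 4 other caspase, gasdermin and membrane rupture genes tested, limma called 0 in each comparison, and 1 (Ninj1, in T-mDCs against N-mDCs) had an unadjusted p under 0.05.

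**Figure D5:**
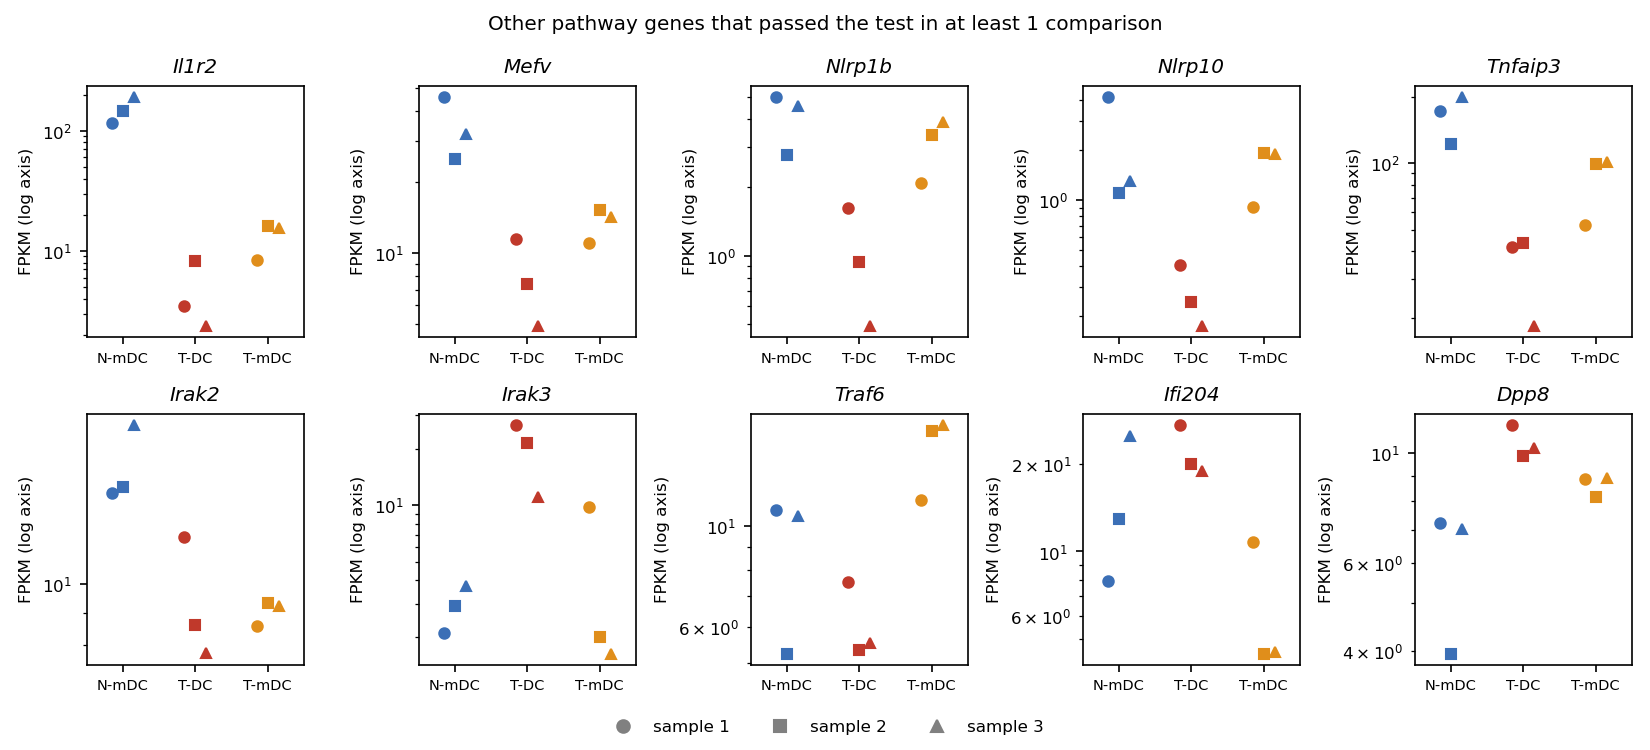
FPKM (vertical axes, log scale) in each sample of the 3 groups for the 10 pathway genes beside the first 10 that were called in at least 1 comparison. Il1r2 of N-mDCs (116 to 189 FPKM) lies above all leukemic samples (2.38 to 16.2), and Irak3 of T-DCs (11.1 to 26.6) lies above all others.

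For each of the 10 genes, the genes with the most similar profile over the 9 samples were found by the root mean square (RMS) difference of centered log2(FPKM + 1). Nearest to Il1b were Clec7a (0.24), Btg2 (0.34) and Hspa1a (0.34), where the RMS spread of Il1b itself was 1.25. Nearest to Nlrp3 were Rasgef1b (0.32), Ifrd1 (0.37) and CAAA01098150.1 (0.38), with a spread of 1.39. Il1a was nearest to Abcc3 (0.26), Mrc1 (0.29) and Vstm4 (0.29), and Il18 to Gm13710 (0.12), Stab2 (0.13) and Scamp5 (0.17), with spreads of 1.25 and 0.85. Il1rn was nearest to 1700051K13Rik, Foxred2 and Slc6a8, at 0.20 to 0.25 of a spread of 0.60. Casp1 and Gsdmd, with spreads of 0.35 and 0.31, both had Slc25a45 among their nearest 3, at 0.11 and 0.04.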

How the data were processed

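FPKM of RNA sequencing were analysed for 9 samples in 3 groups of 3, assigned by their titles. The authors deposited FPKM, relative to a library size that differed between samples, with gene lengths and coordinates on mm10. The aligner, counting tool, annotation and strand setting are not given in the sources used here. FPKM multiplied by length gave whole reads to within 4.56e-05 of a read (100% of values within 0.01). Of the 54532 genes, 28859 were above 0, and 98.3% of the 54409 genes in GENCODE M21 had the same coordinates.

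The 12746 genes with an FPKM of 1 or more in 3 or more samples were tested as log2(FPKM + 1) with limma 3.58.1 in R 4.3.3. All 3 groups were in 1 fit (eBayes with trend, Benjamini-Hochberg adjustment over all tested genes, threshold 0.05). This fit was checked on simulated data with independent noise. They held no outlying sample and no pair as alike as T-mDC samples 2 and 3, so the check does not cover these features. Genes are called lower or higher where the adjusted p is under 0.05. Reads were not recounted, and the sampling depth of each sample bounds only counting error. The 10 genes, the pathway and marker lists and the tests were chosen with earlier results of these data known. All 10 genes are named, pathway genes where called (Il18bp, Il1r1 and Il33 were named after their values were seen), and the 3 genes with the nearest profile for each of the 10. Sample numbers were not treated as pairs, since deviations of samples with the same number had correlations from -0.475 to 0.269. Alternatives were another pseudocount, filters, scalings, fits, weights, a replicate block, limma voom on recovered reads, the mean of T-mDC samples 2 and 3, a red cell gene covariate and each sample left out. Promoters came from the RefSeq table (GRCm38.p6). Other data of the study were not analysed here.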

Additional observations from a re-analysis of the deposited data

How the results depend on the processing

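Values are in the order T-DCs against N-mDCs, then T-DCs against T-mDCs, then T-mDCs against N-mDCs. Il1b and Nlrp3 passed in the first in 22 of 22 alternatives. In the last, Il1b passed in 16 and Nlrp3 in 7, and Il1rn passed in the second in 14. Of the 10 genes, 2, 1 and 2 were called. In the last comparison the count was 1 with a pseudocount of 0.1, no filter, FPKM of at least 5, quantile normalization, the replicate block or limma voom, 0 with TPM or the mean of T-mDC samples 2 and 3, and 3 with only the groups compared. Of all genes, those with 1 called 78 to 327 there, TPM 99, that mean 23 and only the groups compared 850, against 282 in the main fit. In T-DCs against T-mDCs the count was 0 with no filter, the replicate block, that mean or the erythroid covariate, and 2 with voom. Of all genes, these called 1279, 1253, 540, 0 and 1910 there, against 1813 in the main fit. The erythroid covariate called 484 of all genes in T-DCs against N-mDCs, against 2096 in the main fit. Median-of-ratios scaling called 2096, 1813 and 283 of all genes in the 3 comparisons, against 2096, 1813 and 282 in the main fit. Without the variance trend these were 2078, 1821 and 285. Both alternatives nearly repeat the main fit and add little to the counts of alternatives passed. Array weights gave 6, 4 and 5, where 66.6%, 77.9% and 30.1% of all tested genes were called. Leaving out 1 sample gave 2 to 5, 0 to 3 and 0 to 3, with the highest counts without T-DC sample 1. These fits called 980 to 5030, 541 to 4475 and 23 to 1022 of all tested genes. The replicate block called 3, 0 and 1 of the 10, and 1378, 1253 and 78 of all tested genes. The sample numbers are not shown to pair the samples, and the cause of a lost call was not tested. Of 660 values of the 10 genes under an alternative, 552 kept their direction and side of the threshold, 29 lost a call and 20 gained one; 59 changed sign, of which 0 passed the test, and 109 of 305 pathway values lost a call. TPM moved the median of all genes by -0.11, -0.32 and 0.21 in the 3 comparisons, and voom by -0.14 in T-DCs against T-mDCs. Calls lower were 62.9%, 61.8% and 68.8% of all calls, but 67.3%, 78.1% and 50.5% with TPM and 69.9%, 75.0% and 60.7% with voom. Il1rn minus Il1b differed by -0.54 and 2.88 with quantile normalization in the second and last comparison, where the values were -0.85 and 3.23.

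The values that changed sign with TPM were, for Gsdmd, -0.104, -0.314 and 0.21 in the 3 comparisons, -0.259 for Pycard and -0.23 for Casp1 in T-DCs against T-mDCs, and 0.003 for Casp1 and 0.16 for Casp4 in T-mDCs against N-mDCs. With quantile normalization they were -0.13, -0.26 and 0.13 for Gsdmd, and -0.033 for Pycard and -0.134 for Casp1 in T-DCs against T-mDCs. With array weights they were 0.002 and 0.13 for Casp4 in the T-DC comparisons, -0.001, -0.013 and 0.012 for Gsdmd, and 0.042 for Il1b in T-DCs against T-mDCs. With voom they were -0.046, -0.135 and 0.09 for Gsdmd, -0.082 for Pycard and -0.044 for Casp1 in T-DCs against T-mDCs, and 0.039 for Casp4 in T-mDCs against N-mDCs. With the T-mDC mean they were -0.096 for Pycard in T-DCs against T-mDCs and 0.000 for Gsdmd in T-mDCs against N-mDCs. With the erythroid covariate they were 0.10 for Il18, 0.45 for Casp1 and 0.24 for Casp4 in T-DCs against N-mDCs, and 0.44 for Casp4, 0.27 for Il1b and 0.43 for Aim2 in T-DCs against T-mDCs. Without 1 sample, values that changed sign in some case ran, for T-DCs against N-mDCs, from -0.112 to 0.526 for Pycard, -0.467 to 0.238 for Casp1, -0.339 to 0.173 for Casp4 and -0.329 to 0.326 for Gsdmd. For T-DCs against T-mDCs they ran from -0.358 to 0.933 for Il1a, -0.611 to 0.036 for Il1b, -0.193 to 0.959 for Il18, -0.191 to 0.447 for Pycard, -0.258 to 0.447 for Casp1, -0.292 to 0.219 for Casp4 and -0.323 to 0.332 for Gsdmd. For T-mDCs against N-mDCs they ran from -0.218 to 0.326 for Pycard, -0.131 to 0.10 for Casp4 and -0.051 to 0.046 for Gsdmd.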
